A study of Mus musculus with 62 samples.

Results

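RNA from the liver and the prefrontal cortex of vehicle-treated mice was compared. The 8 libraries came from female C57BL/6 mice, an inbred laboratory strain, and were the vehicle arm of a study of 62 libraries in which other females swallowed the MARBLES mixture of polychlorinated biphenyls (PCBs, persistent industrial chemicals) at 0.1, 1 or 6 mg/kg, with striatum as the third tissue. The vehicle mice received the 0 mg/kg dose and no PCB. Members were all vehicle samples of these tissues, 4 liver libraries (animals 3, 4, 7 and 8) and 4 prefrontal cortex libraries with the same numbers. The same number was taken as the same mouse, which the labels do not state. Age and the volume or kind of vehicle were not given in the sources used here. Cortex RNA came from tissue punches, so the cells of a punch, and how far it reached into neighbouring regions, vary with its placement.

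The liver is built mostly of hepatocytes, which secrete plasma proteins, make and store glucose, turn ammonia into urea, form bile acids and oxidise drugs and fats. The prefrontal cortex is built of excitatory projection neurons that release glutamate, inhibitory interneurons that release GABA, astrocytes that clear transmitter and feed neurons, oligodendrocytes that wrap axons in myelin, and microglia, the resident macrophages. Both organs hold blood vessels and macrophages, so the comparison sets organ-specific transcripts beside genes that both use.

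Total counts ran from 8.95 to 10.18 M (1 M is 1000000 counts) per liver library and from 8.87 to 11.67 M per cortex library. Albumin alone took 7.2 to 8.7% of the counts of a liver, and 175 to 220 genes made up 50% of a liver library against 1105 to 1139 in the cortex. The deposited tables shared 15384 genes, 822 stood only in the liver table and 2269 only in the cortex table. A gene left out of a table had at most 9 counts over all libraries of that tissue. Levels are counts per 1000000 (CPM) after TMM scaling (edgeR's trimmed mean, which removes the weight of a few very abundant genes), written in the order of animals 3, 4, 7 and 8. Log2 fold changes are liver over cortex, so a positive value is higher in liver, and are given with their standard error (4 against 4 libraries). Where 2 CPM values stand together without further words, the first is the mean of the livers and the second that of the cortices. The p-values measure the spread between these samples, and nothing beyond the animal numbers says which dissections or extractions were separate.

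The 12 hepatocyte markers together held between 184956 and 212327 CPM in the livers and between 1.87 and 4.31 CPM in the cortex, where 6 of them were listed. The 10 neuron markers held 7779 to 9332 CPM in the cortex libraries. Among the livers, that of animal 7 stood apart: its neuron marker counts were 608, against 97, 77 and 66 in animals 3, 4 and 8. Brain transcripts were traced further with 219 genes at 200 CPM or more in the cortex and under 1 part in 300 of that level in the mean of the other 3 livers. In the liver of animal 7 these genes stood at a median of 0.95% of their cortex level (quartiles 0.739 and 1.19%), and none was at 0. In the livers of animals 3, 4 and 8 the medians were 0.0405, 0 and 0.0981%, with 84, 122 and 66 genes at 0. The set made up 0.0741% of all counts in the liver of animal 7, against 0.0066, 0.00499 and 0.0105% in the others. The 219 genes were picked by being low in those 3 livers, so no more is read from them than their level in animal 7, and how brain RNA entered that library was not tested. Leaving that library out moved 884 of all 13838 genes tested by over 1.5-fold, and where it did so for a log2 fold change given below, both values are given.

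**Figure D1:**
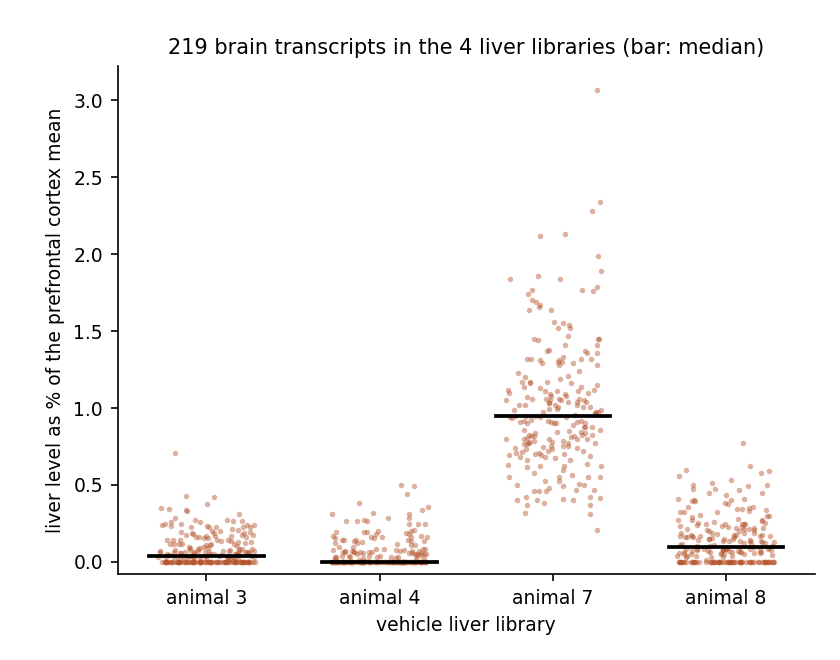
Levels of 219 brain transcripts in each vehicle liver library, as percent of their mean level in the prefrontal cortex (points are genes, bars are medians). The points of animal 7 centre on 0.95%, while those of animals 3, 4 and 8 lie near 0.

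Most genes differed between the organs. Of 13838 genes with enough counts, 11752 passed edgeR's quasi-likelihood test at an adjusted p under 0.05 (84.9% of those tested), 5386 of them higher in liver (38.9%) and 6366 higher in cortex (46%). In 11253 genes (81.3%) the 4 libraries of one organ lay all above the 4 of the other. Because so many passed, a stricter call asked for a difference larger than 2-fold: 8081 genes passed it (58.4%), 3560 higher in liver (25.7%) and 4521 higher in cortex (32.7%), and 8066 of these showed no overlap between the organs. Among the 8081 genes, the fitted fold change was over 10-fold in 1263 on the liver side and 2304 on the cortex side, and over 100-fold in 367 and 985. These are cuts on the estimate and not tests, and the estimate is uncertain where the lower organ has few reads. They leave out genes of 1 table, of which 172 liver-only and 2 cortex-only genes stood at 100 CPM or more. The balance of directions rests on how the organs are scaled: with total counts in place of TMM the median log2 fold change of all genes moved from -0.19 to -0.89, a shift of -0.7, and the liver side of the calls past 2-fold from 44.1 to 28.8% (of all passing genes from 45.8 to 32%). In bulk tissue, fewer cells of a type and less RNA per cell cannot be told apart, here and in all results that follow. Gene lists below are read against these shares, and directions that turned under total counts are named.

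**Figure D2:**
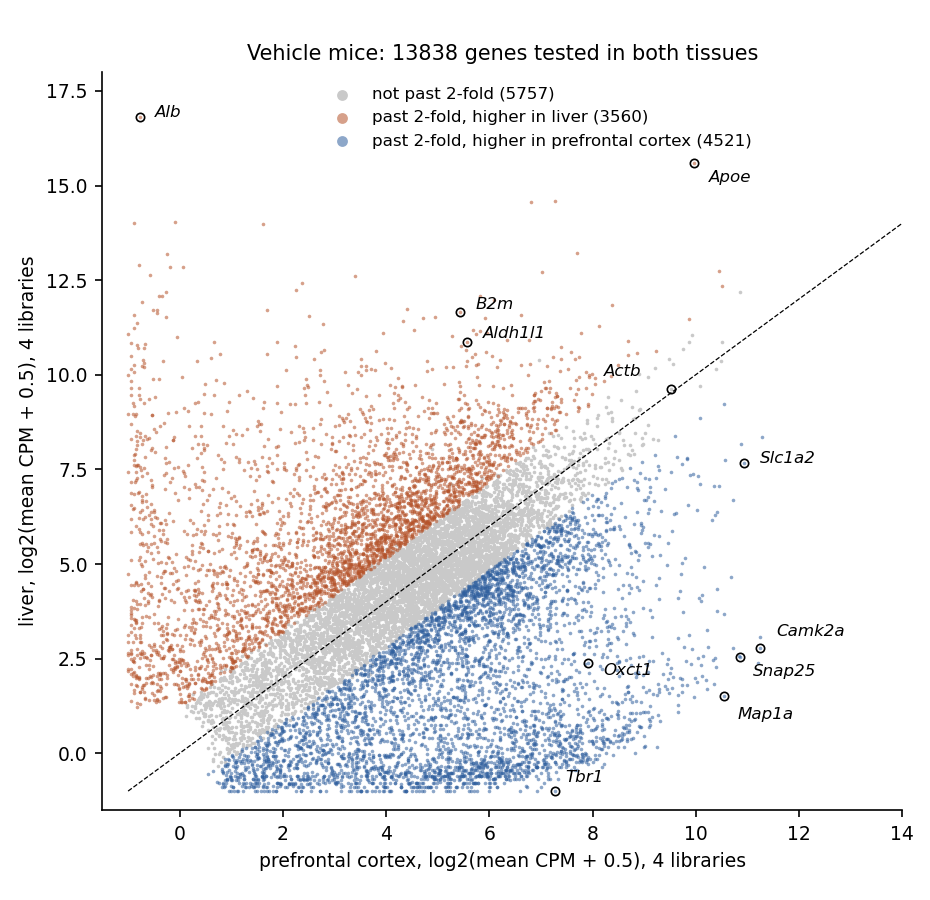
Mean level of each of 13838 genes in liver (y axis) against prefrontal cortex (x axis), both as log2(mean CPM + 0.5), with genes past 2-fold in colour. Alb sits at the top left and Tbr1 at the foot of the plot, while Actb lies on the dashed line of equal levels.

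Albumin (Alb), the main protein of blood plasma, was the most abundant liver transcript. Its level was 111702, 127461, 107169.6 and 115848 CPM in the livers, while the 4 cortex libraries together held 4 reads of it. Others among the genes with the highest liver CPM were those of the lipoprotein coats Apoe, Apoa1, Apoa2, Apoc1 and Apoc3, the iron carrier transferrin (Trf), the thyroxine and retinol carrier transthyretin (Ttr), the iron store light chain Ftl1, the desaturase Scd1 and the cytochrome P450 Cyp2e1. Ttr stood at 12726, 15912, 15071 and 21214 CPM in the livers and 1.78, 4.07, 3.14 and 1.25 CPM in the cortex. The organs did not overlap, and its log2 fold change was 12.63 ± 0.423 (adjusted p = 3.02e-11). Apoe is also made by astrocytes and was at 995 ± 126 CPM (SD, n = 4) in the cortex against 49328 ± 8758 CPM in liver, a log2 fold change of 5.63 ± 0.186.

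The plasma proteins moved as a block. Of 26 carrier and transport proteins, 15 were tested and all 15 were higher in liver past 2-fold, with a median log2 fold change of 12.63, and the other 11 were in the liver table only. Of 39 coagulation and complement proteins, 20 of 20 tested were higher past 2-fold (median 9.51) and 19 were in the liver table only, among them fibrinogen chains Fga, Fgb and Fgg at 3552 ± 1102, 5501 ± 536 and 4859 ± 245 CPM. The complement hub C3 was at 6367 ± 741 CPM in liver and had 9 reads over the 4 cortex libraries. Among the smaller gaps were those of protein S (Pros1, 2.59 ± 0.148) and the mannose-binding lectin proteases Masp1 (4.17 ± 0.133) and Masp2 (4.45 ± 0.153). Cortex levels of Pros1, Masp1 and Masp2 were 8.47, 10.3 and 16 CPM. F8 (2.67) and C2 (4.39) had small gaps too. The complement genes C1qa, C1qb and C1qc were not counted on this list, and were higher in liver without passing 2-fold (1.06, 0.85 and 1.02).

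Nitrogen and amino acid enzymes were also almost wholly on the liver side. Of 40 genes, 7 were in the liver table only, 32 of 33 tested were higher in liver past 2-fold, and the median was 8.92. Carbamoyl phosphate synthase (Cps1), which starts the urea cycle, was at 3763, 3304, 3578 and 2774 CPM in the livers with 10 cortex reads in all. Argininosuccinate synthase (Ass1) was at 1219, 986, 887 and 293 CPM in the livers and 7.1, 9.93, 7.8 and 11.5 CPM in the cortex, with the liver of animal 8 lowest but still above all cortex libraries (6.54 ± 0.475). The exception was Got1, a cytosolic aspartate aminotransferase that also runs the malate-aspartate shuttle, at 507 and 314 CPM, which passed the test (0.69 ± 0.117, adjusted p = 7.34e-05) but not past 2-fold, and turned to -0.01 under total counts.

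Bile acid genes gave 17 of 17 tested higher past 2-fold (median 8.69) and 8 in the liver table only. Cyp7a1, the rate-limiting enzyme of bile acid synthesis, was among the latter, at 195, 105, 76.7 and 36.6 CPM, a wide spread among the mice with animal 3 highest and animal 8 lowest. The sinusoidal importer Slc10a1 was at 1204 ± 135 CPM and the canalicular exporter Abcb11 at 984 ± 74 CPM. Cyp7b1, the oxysterol hydroxylase that brain also uses, had the smallest gap (26 and 7.53 CPM, 1.79 ± 0.174). Of 70 cytochrome P450 and conjugating enzymes chosen for the list, 43 were in the liver table only and 26 of 26 tested were higher in liver past 2-fold (median 5.94). Some family members outside the list were higher in cortex past 2-fold, among them Cyp46a1 (-4.63), Cyp1b1 (-2.34) and Gstm5 (-2.09). Cyp2e1, the ethanol-oxidising P450, was at 6625, 7197, 7449 and 9112 CPM with 4 cortex reads in all. Among the genes of this list that the cortex held at the highest levels were the glutathione transferase Gstm1 (97.5 ± 3.57 CPM), the P450 reductase Por (77.8 ± 11.8) and a second transferase, Gstp1 (69.2 ± 9.06). Cyp2b10, the textbook target of the receptor CAR, stood at only 2.29 ± 0.929 CPM in these undosed livers.

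The labels give the mice as female, and no male group was used here. Cyp2b9, Cyp2b13, Cyp2a4, Cyp3a41a and Cyp3a16, known for higher levels in female than male mouse liver, were at 518 ± 65.6, 231 ± 81.2, 1339.8 ± 109, 1815 ± 556 and 166 ± 89.7 CPM. The male-biased Slco1a1, Elovl3 and Hsd3b5 were at 1.49 ± 0.728, 1.65 ± 1 and 0.48 ± 0.366 CPM. Cux2, a female-biased liver factor and also a marker of upper-layer cortical neurons, was at 85.9, 30.2, 106 and 116 CPM in the livers and 98.4, 69.2, 77.4 and 62.7 CPM in the cortex. The groups overlapped and it was the only cortical transcription factor on its list that did not pass (0.13 ± 0.356, 95% interval from -0.67 to 0.94, adjusted p = 0.733, -0.58 under total counts). The liver of animal 4 held the least and that of animal 8 the most, and without the liver of animal 4 Cux2 passed on the liver side (0.48). Close relatives among these P450 genes and the Serpina1 and Mup genes share sequence, so their single levels are uncertain.

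Genes of glucose production and glycogen gave 15 of 18 tested higher in liver past 2-fold (median 5.01) and 4 in the liver table only. Among the latter were G6pc, which releases free glucose into blood, at 561, 649, 310.3 and 257 CPM, and Pck1, the cytosolic entry to gluconeogenesis, at 1943, 3589, 1793 and 2249 CPM. Animal 4 was highest in both and animals 7 and 8 were lowest for G6pc. Fbp1, the next gluconeogenic enzyme, was at 1687 ± 433 CPM in liver with 6 cortex reads in all. The 3 genes not past 2-fold were the glycogen scaffold Ppp1r3c (47.1 and 29.1 CPM, 0.7 ± 0.146, -0.01 under total counts), the mitochondrial Pck2, higher in cortex (11.7 and 17.4 CPM, -0.57 ± 0.144), and Pgm2, which did not pass (5.83 and 3.97 CPM, 0.56 ± 0.265, adjusted p = 0.0613, -0.13 under total counts). Pgm2 did pass without the liver of animal 8 (0.80), under DESeq2 (0.56) and in the fit over all doses (0.68).

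Fat oxidation and ketone genes lay on the liver side with 2 exceptions. Of 30 genes, 28 were higher in liver past 2-fold and 2 in cortex (median 4.02). Oxct1, which activates ketone bodies for burning and is known to be scarce in hepatocytes, ran the other way, at 3.9, 4.75, 4.57 and 5.51 CPM in the livers and 254, 242, 231 and 238 CPM in the cortex. The organs did not overlap, and its log2 fold change was -5.69 ± 0.145. The second exception was the coactivator Ppargc1a, at 12.1 and 34.4 CPM (-1.51 ± 0.158). The entry enzyme Cpt1a was at 311 and 20.2 CPM (3.95 ± 0.136).

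Of 27 hepatocyte transcription factors, 8 were in the liver table only and 18 of 19 tested were higher in liver past 2-fold (median 4.35). Hnf4a, a master regulator of hepatocyte genes, stood at 685, 636, 513 and 426 CPM in liver and was unlisted in cortex, as were Foxa1, Foxa2, Foxa3, Gata4, Nr0b2 and the xenobiotic receptor Nr1i2. Cebpa was at 696 and 11.8 CPM (5.89 ± 0.169). The repressor Bcl6 did not pass (21.7 and 26.7 CPM, adjusted p = 0.429), but did so on the cortex side without the liver of animal 4 (-0.80) or on total counts (-0.99). Of 22 markers of the zones of the liver lobule, 15 of 18 tested were higher in liver past 2-fold, and Slc1a2 was higher in cortex past 2-fold. Slc1a2, the glutamate transporter of astrocytes that pericentral hepatocytes also make, was at 175, 219, 196 and 223 CPM in the livers and 2195, 2063, 1823 and 1793 CPM in the cortex (-3.27 ± 0.146). Glul, glutamine synthetase, shared by pericentral hepatocytes and astrocytes, was at 1883 and 932 CPM and its log2 fold change of 1.02 ± 0.128 passed the test (adjusted p = 4.11e-06) but not past 2-fold.

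Promoter sequence was set beside these groups, and the windows of liver-only genes held few CpG. The 250 bases before the RefSeq start (GRCm38.p6) were taken for genes with a single start window. Of genes in the liver table only with 10 CPM or more, 187 of 268 had such a window, with a median of 2 CpG dinucleotides, and 86.1% held fewer than 5. Genes higher in liver past 2-fold had a median of 13, genes higher in cortex past 2-fold 17, and cortex-only genes of 10 CPM or more 13. The other tested genes had 17, like the cortex-higher genes, while all 22862 promoters of the table had 5. The letters TATAAA, searched on both strands, stood in 24.1% of the liver-only, 8.28% of the liver-higher and 5.26% of the cortex-higher windows. The shares were 5.49% among the other tested genes and 13.6% among all promoters. The HNF1 consensus, GTTAAT followed after any 1 base by ATT, searched on both strands, stood in 13 of the 187 liver-only windows (6.95%). It stood in 0.531% of the liver-higher, 0.0756% of the cortex-higher and 0.0528% of the other tested windows, and in 0.429% of all. A match describes letters and not a bound site, and windows were found for between 58.5 and 69.8% of the genes of each of these groups, so as a check of whole groups it is void, and the shares hold only for the genes with a window.

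The windows of 3 liver genes and 2 cortex genes are given as examples, with each CpG in capitals and each sequence ending at the base before the start. Alb (chr5:90460620-90460869, plus strand) holds 2 CpG, Cyp2e1 (chr7:140763569-140763818, plus strand) 2, and Fabp1, the fatty acid carrier of hepatocytes (chr6:71199629-71199878, plus strand), 2. Fabp1 is from the liver-only group, while Alb and Cyp2e1 are from the genes higher in liver past 2-fold and lie below that group's lower quartile of 7. Map1a, a microtubule protein of dendrites (chr2:121289352-121289601, plus strand), holds 21, and Eno2, the neuronal enolase (chr6:124769674-124769923, minus strand), 9. On the gene's own strand TATAAA begins 31 bases before the start in Cyp2e1 and 30 before it in Fabp1, and the other 3 windows lack these letters on that strand.
Alb: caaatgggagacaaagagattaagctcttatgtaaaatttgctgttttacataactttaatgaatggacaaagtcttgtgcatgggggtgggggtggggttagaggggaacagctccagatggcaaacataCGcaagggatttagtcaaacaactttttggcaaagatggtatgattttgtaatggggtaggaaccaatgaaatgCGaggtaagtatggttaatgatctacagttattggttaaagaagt
Cyp2e1: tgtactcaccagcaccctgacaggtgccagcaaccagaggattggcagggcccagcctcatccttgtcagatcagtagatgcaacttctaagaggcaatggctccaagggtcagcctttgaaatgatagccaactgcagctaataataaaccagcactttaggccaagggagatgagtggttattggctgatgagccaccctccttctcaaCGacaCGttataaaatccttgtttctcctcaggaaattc
Fabp1: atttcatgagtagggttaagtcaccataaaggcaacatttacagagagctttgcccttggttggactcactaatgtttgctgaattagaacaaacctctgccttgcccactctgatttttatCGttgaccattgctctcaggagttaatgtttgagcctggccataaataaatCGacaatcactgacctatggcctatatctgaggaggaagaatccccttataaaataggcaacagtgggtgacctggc
Map1a: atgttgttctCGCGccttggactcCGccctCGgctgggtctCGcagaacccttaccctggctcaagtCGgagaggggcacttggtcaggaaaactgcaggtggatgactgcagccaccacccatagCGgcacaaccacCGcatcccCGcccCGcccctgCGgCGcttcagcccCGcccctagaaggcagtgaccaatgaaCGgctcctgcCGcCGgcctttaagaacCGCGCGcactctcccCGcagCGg
Eno2: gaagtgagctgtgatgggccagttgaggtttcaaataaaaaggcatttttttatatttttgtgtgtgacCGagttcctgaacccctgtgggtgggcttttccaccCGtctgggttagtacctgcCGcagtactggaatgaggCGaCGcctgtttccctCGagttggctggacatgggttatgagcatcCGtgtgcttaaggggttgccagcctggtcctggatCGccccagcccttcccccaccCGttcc
Fabp1 was in the liver table only, at 3739, 5149.9, 5607 and 6835 CPM. Map1a was at 1492, 1558, 1468 and 1495 CPM in the cortex and at 1.3, 0.288, 6.14 and 1.6 CPM in the livers (-9.34 ± 0.606; -10.49 without the liver of animal 7). Eno2 was at 3.52 and 756 CPM (-7.76 ± 0.895; -10.0 without the liver of animal 7).

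On the cortex side, the listed machinery of the synapse was higher throughout. All 34 tested genes of vesicle release were higher in cortex past 2-fold (median -7.49), as were all 36 of glutamate receptors and the postsynaptic density (-7.63). The same held for all 36 voltage-gated channels that were listed and tested (-8.33). Without the liver of animal 7, and with genes left at no read set at 3 counts over the other livers, the medians were -8.38, -8.57 and -9.12. The channel list is not the whole class. Outside it Hcn3, which overlaps Pklr, was higher in liver past 2-fold (5.4) and Cacna1d within it (0.55 on TMM scaling). Snap25, part of the fusion complex that releases transmitter, was at 2063, 1990.3, 1770.2 and 1637 CPM in the cortex and 0.433, 0, 20 and 0.711 CPM in the livers. The liver of animal 7 was far above the other livers, and the log2 fold change moved from -8.47 ± 1.35 to -12.28 without it. Camk2a, the kinase of the postsynaptic density, behaved alike: 2717, 2503, 2444 and 2094 CPM in the cortex, 0.144, 0.144, 24.1 and 1.24 CPM in the livers, and -8.58 ± 1.42 against -12.31. Slc17a7, which loads glutamate into vesicles, was at 1396, 1227, 1431 and 1156 CPM in the cortex and 0, 0.144, 11.8 and 0.178 CPM in the livers, so the liver of animal 7 again held nearly all liver reads.

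Some synaptic genes had liver reads of their own. Unc13a, a priming factor of vesicles, was at 31, 46.1, 47.2 and 53.5 CPM in the livers and 437, 404, 434 and 397 CPM in the cortex (-3.23 ± 0.165, and -3.25 without the liver of animal 7). Dnajc5, a vesicle chaperone, was at 64.1 and 364 CPM (-2.5 ± 0.123). The scaffolds Shank2 and Baiap2 were at 26.6 and 68.8 CPM in liver, with the smallest gaps on the postsynaptic list (-2.56 ± 0.156 and -2.17 ± 0.162). The GABA-B receptor subunit Gabbr2 stood at 87.8, 67.1, 88.9 and 75.2 CPM in the livers against 363, 324, 353 and 278 CPM in the cortex (-2.05 ± 0.14). In these genes animal 7 did not stand out among the livers.

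Of 27 tested GABA and interneuron genes, 23 were higher in cortex past 2-fold (median -7.76, and -8.18 without the liver of animal 7, set in the same way) and 4 did not pass. The GABA-making enzyme Gad1 was at 304, 332, 332 and 401 CPM in the cortex, and all 23 liver reads came from animal 7. The 4 that did not pass were Abat, the GABA transaminase, which liver also uses (262 and 239 CPM, 0.13 ± 0.135, -0.57 under total counts), Gphn, the gephyrin of inhibitory synapses and of molybdenum cofactor synthesis (64.8 and 57.4 CPM, 0.17 ± 0.1, -0.53 under total counts), Lhx6 and Reln. Lhx6, an interneuron factor, was at 11.9 and 19.5 CPM, and Reln, made by interneurons and by hepatic stellate cells, at 71.8 and 78 CPM. The 95% intervals were from -0.16 to 0.43 for Abat and from -0.04 to 0.39 for Gphn. Without the liver of animal 4, Gphn passed on the liver side (0.25) and Lhx6 on the cortex side (-1.15), as they did in the fit over all doses (0.29 and -0.58). On total counts all 27 passed on the cortex side, Lhx6 at -1.39 and Reln at -0.83. Among peptide genes, somatostatin (Sst) was at 182 ± 23.7 CPM, cholecystokinin (Cck) at 221 ± 23.2 and neuropeptide Y (Npy) at 42.5 ± 5.7 in the cortex, and vasoactive intestinal peptide (Vip) was in the cortex table only at 23.6 ± 7.19.

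Transcription factors of cortical projection neurons marked the punches: 21 of 22 tested were higher in cortex past 2-fold (median -6.80), and Neurod6, Fezf2, Emx1, Emx2, Neurod1 and Pou3f2 were in the cortex table only. Tbr1, which marks deep-layer projection neurons, was at 164, 156, 167 and 126 CPM in the cortex and had no read in any liver, including animal 7 (a count of 0 allows up to 3 per library). Of 37 cytoskeletal and axonal genes, 35 were higher past 2-fold and the 2 others passed within it, the tubulins Tuba4a (320.2 and 497 CPM, -0.63 ± 0.126) and Tubb2a (238 and 449 CPM, -0.91 ± 0.212). Of 22 neuronal RNA-binding proteins 20 were higher in cortex past 2-fold and the 2 others passed within it. Among the genes with the highest cortex CPM were the axonal motor Kif5a, the amyloid precursor App and the prohormone processor Cpe. Kif5a was at 2435 ± 78.4 CPM in cortex (-8.26 ± 0.872, and -9.71 without the liver of animal 7). App, which most cells use, was at 104 and 1700.1 CPM (-4.04 ± 0.141). Kif5a overlaps Dctn2, and the use of strand in counting was not given in the sources used here.

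**Figure D3:**
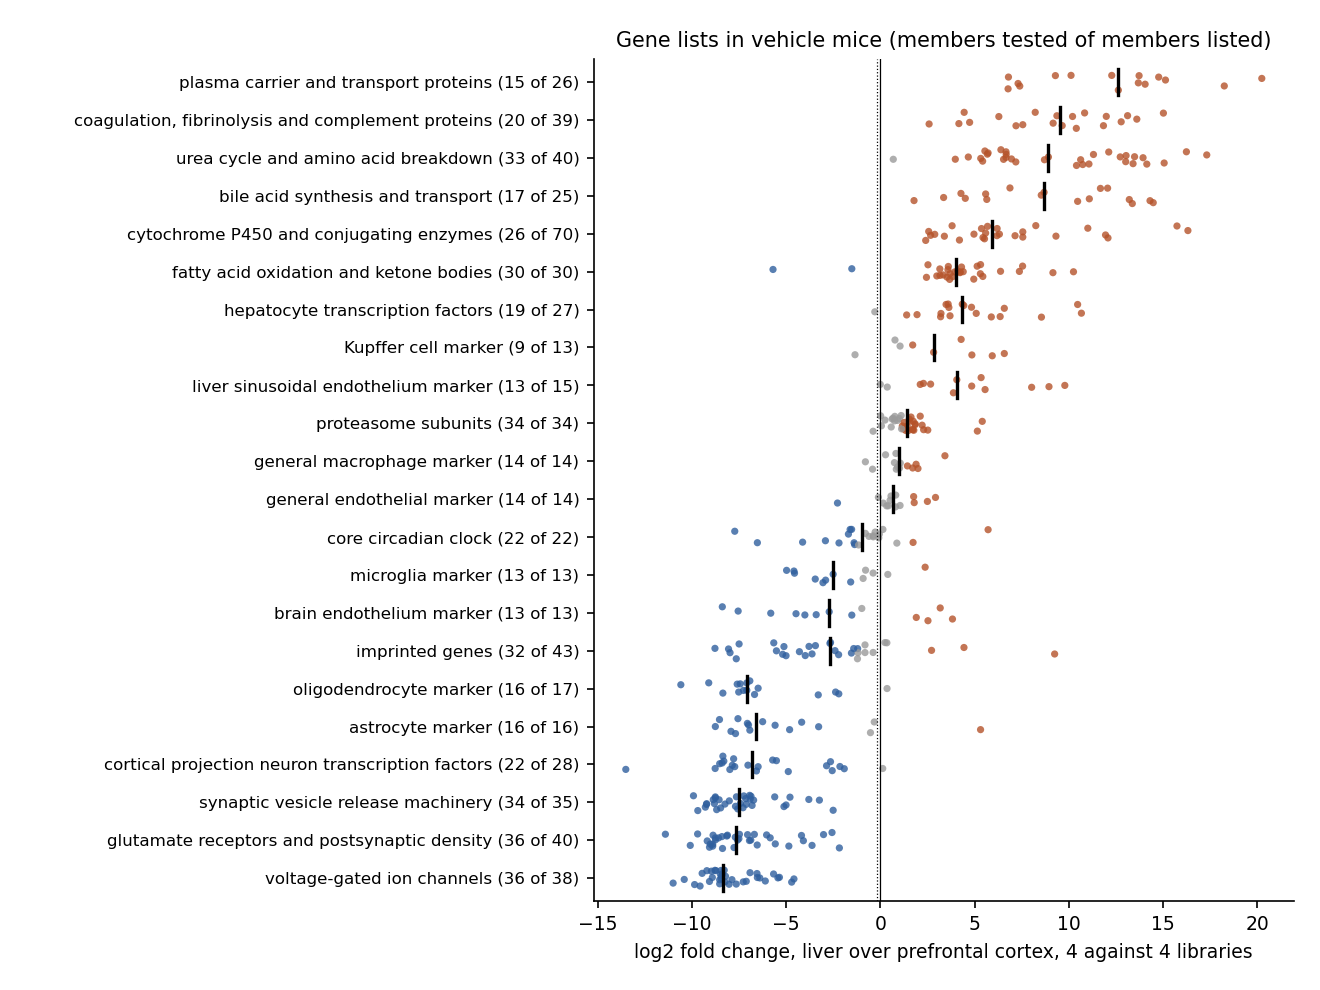
Log2 fold change, liver over prefrontal cortex, of every tested member of 22 gene lists (points, coloured where past 2-fold, orange higher in liver and blue higher in cortex; thick bars are list medians, and the dotted line is the median of all genes tested, -0.19; genes with no read in one organ are drawn at the fitted value, which is no bound). Plasma protein lists lie far to the right, synaptic and channel lists to the left, and the macrophage and endothelial lists straddle 0.

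Glial markers were higher in cortex with named exceptions. Of 16 astrocyte markers 13 were higher in cortex past 2-fold (median -6.58). Gfap, the astrocyte filament, was at 74.6, 80.6, 70.7 and 69.6 CPM in the cortex and 0.289, 1.01, 1.89 and 0.711 CPM in the livers (-6.24 ± 0.251). Aldh1l1, a folate enzyme used as a pan-astrocyte marker in brain, ran the other way, at 1652, 1938, 1988 and 1949 CPM in the livers and 48.5, 44, 46.8 and 49.4 CPM in the cortex (5.32 ± 0.148). The growth factor receptor Fgfr3 did not pass (73 and 91.1 CPM, adjusted p = 0.0517), though it did so, on the cortex side, on total counts (-1.02), with no filter on low counts (-0.35), with the animal number as replicate block (-0.33), and without the liver of animal 7 (-0.43), the cortex of animal 4 (-0.40) or animal 7 in both tissues (-0.39). Of 16 oligodendrocyte markers 15 were higher in cortex past 2-fold (median -7.08). The myelin gene Mbp was at 712, 859.7, 813 and 1097 CPM in the cortex, highest in animal 8, and 2.02, 2.3, 19.8 and 1.6 CPM in the livers (-7.08 ± 0.858, and -8.76 without the liver of animal 7). Aspa, which splits N-acetylaspartate, was at 8.01 and 6.23 CPM and did not pass (0.36 ± 0.242, -0.35 under total counts), except on the liver side without the cortex of animal 8 (0.58).

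Macrophage markers were read as a shared list and as lists for each organ. Of 14 general macrophage markers 5 were higher in liver past 2-fold and none in cortex (median 0.97), and 13 passed the ordinary test, 11 of them higher in liver (on total counts 6 in liver and 3 in cortex). Csf1r, the growth factor receptor on which macrophages depend, was higher in cortex (49 and 84.7 CPM, -0.79 ± 0.129), and the lysozyme Lyz2 was higher in liver (47.2 and 4.33 CPM, 3.43 ± 0.202). Of the Kupffer cell markers Clec4f, Cd5l, Vsig4 and Marco were in the liver table only, at 95.6 ± 21.3, 65.3 ± 18, 22 ± 5.39 and 8.56 ± 2.18 CPM, and 6 of 9 tested were higher in liver past 2-fold (66.7%, median 2.83). Of 13 microglia markers 9 were past 2-fold (69.2%, with 58.4% of all genes), 8 of them higher in cortex (median -2.50), among them P2ry12, at 21.7, 22, 12.8 and 11.7 CPM in the cortex and 1.16, 2.01, 0.787 and 2.31 CPM in the livers (-3.45 ± 0.334). Sall1, a transcription factor that keeps microglial identity, was the exception, at 80.1, 70.9, 88.5 and 67 CPM in the livers and 14.1, 14.2, 15.6 and 15.1 CPM in the cortex (2.38 ± 0.126). On total counts the macrophage list had 2 members past 2-fold in liver and 1 in cortex.

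Of 14 general endothelial markers, 4 were higher in liver past 2-fold and Flt1 in cortex (median 0.69, or -0.02 on total counts), and 10 passed the ordinary test on the liver side and 1 on the cortex side (4 and 2 on total counts, with 2 and 1 past 2-fold). Pecam1, an adhesion protein of endothelium, was at 18.9 and 14.1 CPM (0.43 ± 0.16). It passed, but not without the liver of animal 4 (0.37), the cortex of animal 4 (0.38) or animal 7 in both tissues (0.41), nor with the animal number as replicate block (0.42), and turned to -0.27 under total counts. Of 13 tested markers of liver sinusoidal endothelium 11 were higher in liver past 2-fold (median 4.06), with the scavenger receptor Stab2 at 51.8, 61.2, 48.8 and 52.4 CPM in the livers and 1.02, 0.896, 1.02 and 1.6 CPM in the cortex (5.56 ± 0.186). Rspo3 and Wnt2 did not pass (0 ± 0.2 and 0.37 ± 0.301, and -0.71 and -0.33 under total counts), except Wnt2 without the cortex of animal 8 (0.70). Of 13 markers of brain endothelium 8 were higher in cortex past 2-fold and 4 in liver. Slco1c1, the thyroxine transporter of the blood-brain barrier, was at 38.5 CPM in cortex and 0.197 in liver. The 4 others were Slco1a4, a carrier of organic anions (242, 239, 189 and 306 CPM in the livers and 33.4, 25.9, 24.1 and 23.8 in the cortex), the lipid transporter Mfsd2a (174 and 12.2 CPM), the junction protein Ocln (21.2 and 5.65 CPM) and Foxq1 (23.4 and 4.04 CPM). The log2 fold change of Slco1a4 was 3.18 ± 0.171, with no overlap between organs.

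Stellate cell and pericyte markers were past 2-fold in shares near that of all genes tested (58.4%), and bile duct markers in all 5 tested. Of 11 tested markers of hepatic stellate cells, the vitamin A stores of the liver, 6 were higher in liver past 2-fold (54.5%) and none in cortex (median 2.67). Lrat, which makes the stored retinyl ester, was at 29, 34.5, 28.7 and 34.1 CPM in the livers with 5 cortex reads in all, while the collagens Col1a1 and Col1a2 did not pass (0.07 ± 0.358 and 0.36 ± 0.256, and -0.66 and -0.36 under total counts), except Col1a2 without the liver of animal 3 (0.56) or 7 (0.55) or animal 7 in both tissues (0.63). Of 8 tested pericyte markers 4 were higher in liver and Notch3 in cortex past 2-fold (62.5% in all), and 2 more were in the cortex table only. Most of the summed liver level of this list was Vtn. With it the livers held 4238 to 5330.1 CPM, and without it 260.2 to 341 CPM, against 100 to 119 CPM in the cortex. Of 5 bile duct markers 4 were higher in liver and Sox9, which astrocytes use, in cortex (4.3 and 20.8 CPM, -2.28 ± 0.187). Of 15 lymphocyte markers, only Cd4 and Cd79b had enough counts to be tested, and Cd4, a T cell coreceptor, was higher in cortex (0.451 and 16.2 CPM, -5.08 ± 0.45, and -5.81 without the liver of animal 3). Without Cd4 the list held 12 to 15.3 CPM in the livers and 0.407 to 0.848 CPM in the cortex.

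Many metabolic steps were carried by different members of a gene family. Levels of relatives were compared as CPM per kb of the longest coding transcript, and in 21 of 28 families the member with the highest level differed between the organs. Hk1, which phosphorylates glucose in most brain cells, was at 3.75, 4.32, 5.98 and 4.8 CPM in the livers and 362, 326, 392 and 348 CPM in the cortex (-6.24 ± 0.17). Pyruvate kinase was led by Pklr in liver (96.4% of the family) and by Pkm in cortex (100% to the digits shown). Pklr was at 942, 799.7, 1302 and 743 CPM in the livers and 0.41, 0.0814, 0.17 and 0.356 CPM in the cortex (11.76 ± 0.342). Pkm was at 21.7, 27.9, 40.9 and 28.8 CPM in the livers and 1088, 995, 1248 and 1273 CPM in the cortex (-5.27 ± 0.21). Libraries of the organs did not overlap in any of these 3 genes. Pklr overlaps Hcn3, a channel gene, with the strand setting unknown.

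Other families of sugar and fat metabolism had different leaders too. Lactate dehydrogenase was Ldha in liver (87.5%) and Ldhb in cortex (61.9%). Ldha was higher in liver (971 and 264 CPM, 1.88 ± 0.129) although Ldhb differed more (4.8 and 363 CPM, -6.24 ± 0.285). Glycogen phosphorylase was Pygl in liver (99.0%) and Pygb in cortex (78.1%), with muscle Pygm at 10.3 CPM per kb in cortex. Carnitine palmitoyltransferase 1 was Cpt1a in liver (99.5%) and the neuronal Cpt1c in cortex (86.5%). Among glucose transporters Slc2a2, unlisted in cortex, led in liver (73.9%) and Slc2a3 in cortex (40.5%). Acyl-CoA synthetase transcripts were led by Acsl5 in liver (229.6 CPM per kb, with Acsl1 at 213) and by Acsbg1 in cortex (39.8, with Acsl6 at 32.3 and Acsl3 at 31.6), so neither order is clear-cut.

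Families outside metabolism split too. The splicing repressors Ptbp1 and Ptbp2 exchanged the lead (2.94 ± 0.135 and -2.48 ± 0.234), as did the dynamins Dnm2 and Dnm1 (1.09 ± 0.106 and -8.27 ± 1.06, the latter -10.94 without the liver of animal 7), where Dnm2 passed the test but not past 2-fold. Elongation factor Eef1a1 led in both organs, and Eef1a2, its relative in neurons and muscle, reached 499.8 CPM per kb in cortex beside 783 for Eef1a1. In the livers Eef1a2 was at 0.289, 0, 11.8 and 0.533 CPM, nearly all of it in animal 7 (-8.37 ± 1.1, and -11.91 without that library). The leader was shared in 7 families, among them Eno1 for the enolases, Ckb for the creatine kinases, Cox6a1 for the cytochrome oxidase subunits, Pdk2 for the pyruvate dehydrogenase kinases, Acaca for the acetyl-CoA carboxylases and Slc16a1 for the monocarboxylate transporters. Metallothionein Mt1 did not pass (0.23 ± 0.203, -0.48 under total counts, and a pass at 0.44 without the liver of animal 4), while Mt3 was higher in cortex (-6.62 ± 0.568, and -9.44 without the liver of animal 7).

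**Figure D4:**
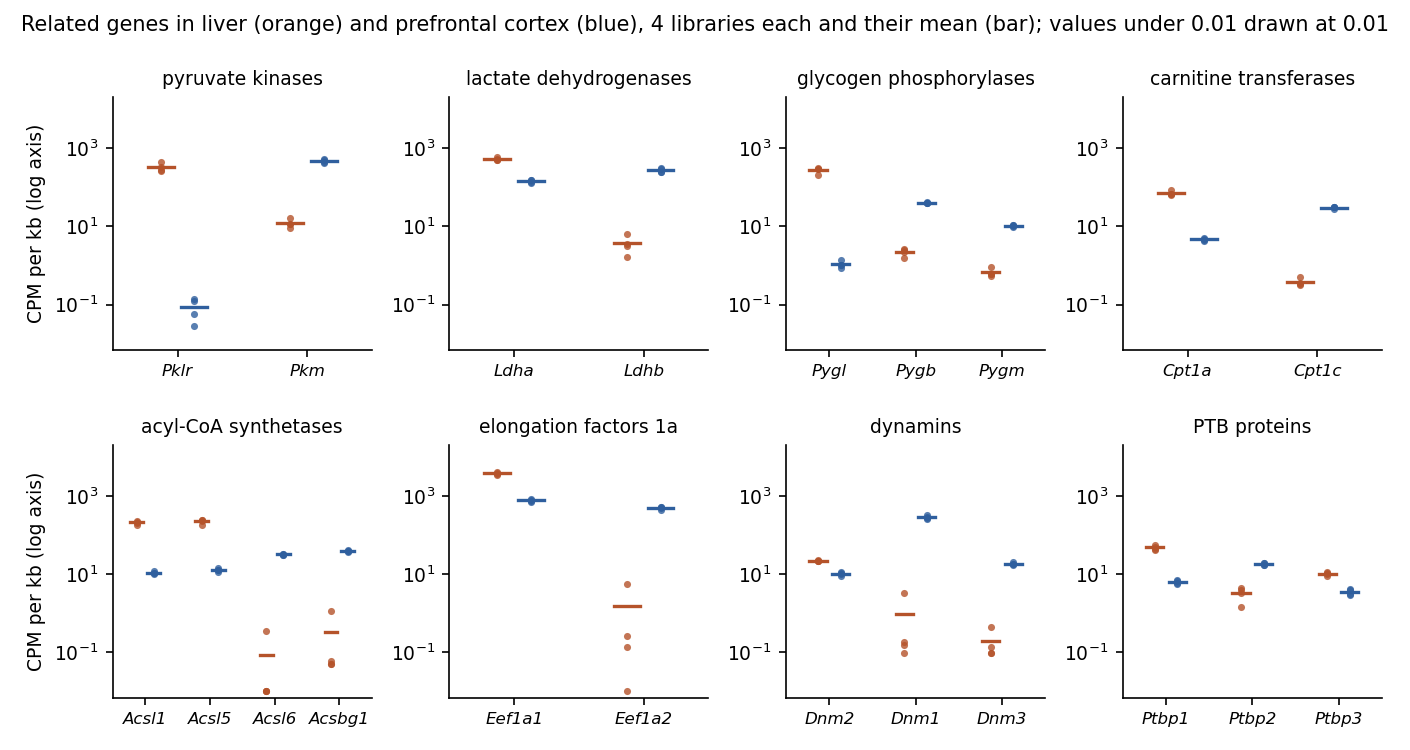
CPM per kb (log axis) of related genes in 8 families, 4 libraries per organ (points) with their mean (bars), values under 0.01 drawn at 0.01. Pklr and Pkm, Pygl and Pygb, and Cpt1a and Cpt1c cross over between organs, while the liver points of Eef1a2, Dnm1, Acsl6 and Acsbg1 spread widely because animal 7 stands above the others.

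Genes through which PCBs are known to be sensed differed past 2-fold in 8 of 13 tested (61.5%), a share near that of all genes (58.4%). Of the 8, 6 were higher in liver and 2 in cortex (median 0.48, or -0.23 on total counts). The aryl hydrocarbon receptor Ahr, which binds dioxin-like PCBs, was at 71.5, 60.3, 54.5 and 57.8 CPM in the livers and 10.8, 10.8, 11.5 and 8.82 CPM in the cortex (2.54 ± 0.137). Its partner Arnt differed little (25.4 and 18.2 CPM, 0.48 ± 0.122, -0.23 under total counts), while the brain relative Arnt2 was higher in cortex (0.784 and 291 CPM, -8.53 ± 0.592, and -12.15 without the liver of animal 7, which held nearly all liver reads of it). The xenobiotic receptor Nr1i2 was in the liver table only (97.4 CPM). The constitutive androstane receptor Nr1i3 was at 321, 339, 351 and 404 CPM in the livers and 32.9, 31.9, 41.8 and 45.2 CPM in the cortex (3.22 ± 0.153). Its cortex reads cannot be told from those of Tomm40l, which overlaps it. Nfe2l2, the oxidative stress factor, was at 108 and 9.34 CPM (3.53 ± 0.191), and the estrogen receptor Esr1 at 30.8 and 3.32 CPM (3.2 ± 0.243).

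Ryanodine receptors, the calcium release channels that some PCBs bind, were cortex genes. Ryr2 was at 171, 179, 165 and 133 CPM in the cortex and 0, 0, 1.1 and 0 CPM in the livers, Ryr3 at 39.2 CPM in cortex with 3 liver reads in all, and Ryr1 at 0.209 and 20.9 CPM. Of the 17 tested genes of store release, 12 were higher in cortex past 2-fold and 3 in liver (14 and 1 on total counts), namely the chaperone Calr (2.02 ± 0.134), the plasma membrane channel Orai1 (2.09 ± 0.281) and the inositol trisphosphate receptor Itpr2 (1.38 ± 0.154). Its relative Itpr1 was higher in cortex (46.7 and 703 CPM, -3.91 ± 0.173).

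The deiodinases that activate thyroid hormone differed between the organs. Dio1 was in the liver table only, at 120.3, 186, 224 and 247 CPM, and Dio2 was at 53.8, 57, 48.9 and 66.4 CPM in the cortex and 0, 0, 0.472 and 0.178 CPM in the livers (-8.39 ± 0.343, and -9.78 without the liver of animal 7). Of 16 tested genes of thyroid hormone handling, 5 were higher in liver past 2-fold and 9 in cortex (median -1.49). The transporter Slc16a10 was higher in liver (6.55 ± 0.251). The receptor Thra was higher in cortex (126 and 678 CPM, -2.42 ± 0.25), with reads it shares with the overlapping Nr1d1, and Thrb was within 2-fold (31.9 and 43 CPM, -0.43 ± 0.124, not passing in the fit over all doses, -0.32). Thrsp, a lipogenic target of the hormone in liver, was at 668, 769, 2414 and 1605 CPM in the livers, with animals 7 and 8 above 3 and 4.

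Genes used as references for quantitative PCR differed past 2-fold about as often as all genes tested. Of 20 such genes 12 did so (60%, against 58.4% of all), 9 higher in liver and 3 in cortex, 7 more passed within 2-fold and Actb did not pass. Actb was at 624, 680.1, 742 and 1089 CPM in the livers and 701, 702, 755 and 783 CPM in the cortex (0.09 ± 0.168, 95% interval from -0.27 to 0.46), and under total counts it moved to -0.63. B2m, the light chain of class I major histocompatibility molecules, was at 2721, 2766, 2976 and 4363 CPM in the livers and 49.7, 43.1, 41.7 and 36.6 CPM in the cortex (6.23 ± 0.213). Gapdh was higher in liver (276 and 68.7 CPM, 2 ± 0.24) and Ywhaz in cortex (163 and 951 CPM, -2.55 ± 0.124). Hprt, Eif4a2 and Polr2a were higher in cortex by less than 2-fold (-0.34 ± 0.11, -0.34 ± 0.116 and -0.78 ± 0.125), the first and second no longer passing without the liver of animal 3 (-0.23 and -0.30) or 4 (-0.28 and -0.29) or in the fit over all doses (-0.22 and -0.23), while Pgk1 was higher in liver by 0.47 ± 0.147 lost its call in the fit over all doses (0.59) and turned to -0.23 under total counts. On total counts 5 of the 20 were higher in liver past 2-fold and 4 in cortex.

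The proteasome, which degrades tagged proteins, was higher in liver in 21 of 34 subunits past 2-fold, 9 more passed within it, and the median was 1.40. On total counts 6 subunits were past 2-fold and the median was 0.70. The immunoproteasome subunits Psmb8 and Psmb9 led with 5.41 ± 0.179 and 5.15 ± 0.311 (and 4.7 and 4.43 on total counts), at 66.1 and 38.3 CPM in liver and 1.55 and 1.08 CPM in cortex. Subunits of the lid and base such as Psmd2 and Psmd14 did not pass (0.06 ± 0.119 and 0.02 ± 0.117, and -0.64 and -0.68 under total counts).

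Imprinted genes, read from a single parental copy, lay mostly on the cortex side. Of 32 tested, 22 were higher in cortex and 3 in liver past 2-fold (median -2.65). The noncoding RNA Meg3 was at 649.5, 601, 593 and 662 CPM in the cortex and 0.578, 0.144, 5.67 and 3.91 CPM in the livers, with animal 7 highest among the livers (-7.97 ± 0.625, and -8.77 without it). Peg3 was at 12.8 and 251 CPM (-4.29 ± 0.127). The liver-sided genes were Slc22a18 (204 and 0.332 CPM), the decarboxylase Ddc (72.2 and 3.37 CPM), which also makes dopamine and serotonin, and the cholesterol enzyme Dhcr7 (195 and 29.6 CPM). Igf2, silenced in adult mouse liver, was at 1.28 CPM there and 40.2 CPM in cortex (-5 ± 0.487, and -6.24 without the liver of animal 7).

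Genes unlisted in one table carried more weight in liver. The 822 liver-only genes held 12.8 to 14.4% of the counts of a liver library, with 268 at 10 CPM or more and 43 at 1000 or more. The 2269 cortex-only genes held 0.844 to 0.931% of a cortex library, with 179 at 10 CPM or more and 2 at 100 or more. The liver-only genes of highest CPM were the fetuin Ahsg (11499.6 ± 1300.3 CPM), the antitrypsin copies Serpina1a to Serpina1d, the vitamin D carrier Gc (9217 ± 903), Fgb and the carboxylesterase Ces1c (5468 ± 447). Those of the cortex were the GABA-A receptor subunit Gabrb2 (124 ± 20.2), the protocadherin Pcdhgc5, which shares exons with its gene cluster, the channel Kcna1 (83.3 ± 7.59), Csmd1, Dscam, Dlgap2, Hs3st2 and Cckbr.

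Transcript length ran with direction. Genes higher in liver past 2-fold had a median longest coding transcript of 2297 bases, genes higher in cortex 4113, and all tested genes 3239. In 5 length classes with upper bounds of 1000, 2000, 4000 and 6000 bases and an open last class, the median log2 fold change went from 1.86 through 0.89, -0.02 and -0.81 to -1.41. The share higher in liver past 2-fold was 64.0% in the shortest class and 9.03% in the longest, and that higher in cortex 12.7 and 53.5%. Genomic span differed likewise, with medians of 15511 and 38891 bases. RNA quality values were not given in the sources used here, and were not tested.

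Livers varied more among the 4 mice than cortices. Among genes at 10 CPM or more, the median SD of log2(CPM + 0.5) was 0.213 in liver (8733 genes) and 0.128 in cortex (9584 genes), and 477 against 51 genes had an SD over 0.5. Of the 6659 genes at that level in both organs, 77.1% had the larger SD in liver. Over 1 stood 34 liver and 4 cortex genes. The most variable were globins, the oxygen carriers of red blood cells: Hba-a1 was at 57.5, 67.2, 1447 and 3817 CPM in the livers and 24.2, 69.8, 36 and 368 CPM in the cortex. Animal 8 was highest in both organs, and also in striatum (441 CPM, against 55.9, 109 and 87.4 in animals 3, 4 and 7), whereas animal 7 was high in liver only. Globin copies are near identical, so their single levels are uncertain, and Hba-a1 did not pass between organs (3.44 ± 1.72, adjusted p = 0.102), although it did by DESeq2 (3.45) and in the fit over all doses (3.55), and its log2 fold change moved to 2.21 without the liver of animal 8 and to 4.95 without the cortex of animal 8.

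In several genes animals 7 and 8 stood together against 3 and 4. Dbp, an output factor of the circadian clock, was at 61.8, 67.1, 195 and 269.6 CPM in the livers and 58.9, 73.8, 95.8 and 92.2 CPM in the cortex. Per3, a repressor of the clock, was at 7.8, 6.62, 32.4 and 26.7 CPM and 16.5, 20.1, 26.8 and 24.5 CPM. Clock, which drives it, ran in reverse, at 35.8, 35, 21.1 and 21.3 CPM in the livers and 85.2, 80.4, 72.2 and 60.1 CPM in the cortex, as did its partner Arntl, at 14.7, 11.7, 5.04 and 5.86 and 35.9, 33, 27.4 and 25.8 CPM. The direction was the same in both organs and wider in liver. Among metabolic genes of the liver, the estrogen sulfotransferase Sult1e1 was at 2.89, 4.75, 64.1 and 39.8 CPM and the retinoic acid hydroxylase Cyp26a1 at 4.91, 9.35, 55.3 and 21.3 CPM. The animals were seen to fall in this way after their values were known, and no test was made of it. Between organs, 10 of 22 clock genes were higher in cortex past 2-fold and 2 in liver (13 and 1 on total counts), among them the repressor Nfil3 (1.74 ± 0.242). The share past 2-fold in either direction was 54.5%, near the 58.4% of all genes. Dbp, Per2 and Per3 did not pass. Dbp did so on the liver side without the liver of animal 3 (1.22) or 4 (1.20) or in the fit over all doses (1.00).

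Some genes typical of striatal projection neurons spread widely among the cortex libraries. The 6 looked at, chosen after their values were seen, were Drd1, Drd2, Adora2a, Penk, Ppp1r1b and Tac1, and each was lowest in animal 3 and highest in animal 8. The dopamine receptor Drd1 was at 42.7, 69.5, 56.4 and 87.5 CPM, the adenosine receptor Adora2a at 44.4, 90.8, 93.7 and 143 CPM and enkephalin (Penk) at 165, 286, 244 and 463 CPM, with animals 4 and 7 between in either order. In the striatum libraries of the same numbers Adora2a was at 357, 199, 406 and 184 CPM, and the cortical marker Slc17a7 at 272, 48.3, 313 and 892 CPM, highest in animal 8. Slc17a7 in the cortex was lowest in animal 8 (1396, 1227, 1431 and 1156 CPM). Cortex also expresses the striatal genes at a lower level, and how much of each punch lay outside the prefrontal cortex was not tested.

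**Figure D5:**
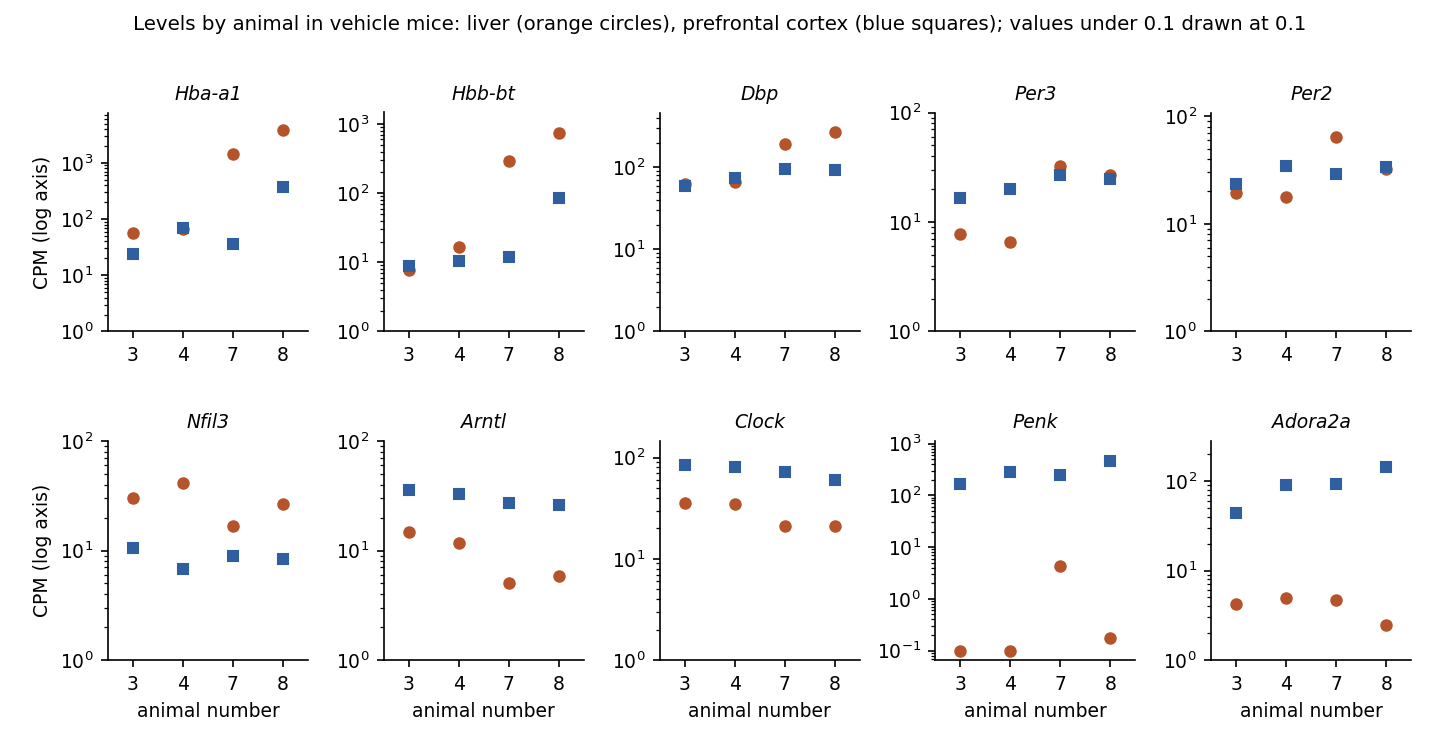
CPM (log axis) of 10 genes in each animal, in liver (circles) and prefrontal cortex (squares), values under 0.1 drawn at 0.1. Hba-a1 and Hbb-bt are highest in animal 8 in both organs, Dbp and Per3 are higher and Arntl and Clock lower in animals 7 and 8 than in 3 and 4, and Penk and Adora2a in cortex are lowest in animal 3.

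Libraries of dosed mice, which the vehicle comparison did not use, gave the same measure again. Past 2-fold lay 7741 of 13917 genes at 0.1 mg/kg (55.6%), 7816 of 13762 at 1 mg/kg (56.8%) and 7772 of 13838 at 6 mg/kg (56.2%). Of the vehicle genes past 2-fold that were tested at each dose, 90.9, 92.4 and 88.5% were past 2-fold in the same direction, and 2, 2 and 11 had the opposite sign. These genes were 94.3, 94.3 and 90.9% of the calls at the doses. Genes named above had these values: Pkm was at -5.18, -5.18 and -5.18 on the log2 scale at the 3 doses, and Oxct1 at -5.41, -5.58 and -5.16. Nr1i3 was at 3.56, 3.31 and 4.26, and Cux2 at 0.42, 0.47 and 1.23, against 3.22 and 0.13 in vehicle mice. Differences between doses were not tested here.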

How the data were processed

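Whole-number read counts per gene were taken from the tables the authors deposited, 1 per tissue. FastQC, HISAT2 and the build mm10 are named without role or version, per the submitters' processing notes. The counter, annotation, strand setting and choice between poly(A) capture and removal of ribosomal RNA were not given in the sources used here. Counts were joined by gene ID, and the genes of both tables entered 1 fit in R 4.3.3 with edgeR 4.0.16 (filterByExpr, TMM, robust quasi-likelihood test, and glmTreat against 2-fold), with Benjamini-Hochberg adjustment over all 13838 genes and a threshold of 0.05. Listed in both tables but too low to test were 1546 genes. The members and lists were chosen with earlier results of these data known.

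Named were, by rule, the 12 most abundant genes past 2-fold without overlap in each direction, the leading and contrary members of each list, family members at 1 CPM or more, the 8 most abundant genes of 1 table, the 8 most variable genes of each organ and all reference genes. Other genes were named after their values were seen. Alternatives were DESeq2 1.42.0, other scalings and filters, unlisted genes as 0, all doses together, the replicate block and leaving out libraries. Simulated counts (13838 genes) held a tissue difference only in 50 genes at each fold, equally many up and down. There the test recovered 82, 98, 100 and 100% of genes changed by 2, 4, 8 and 16-fold, and 4.5% of calls were false. In the data most genes differed, so these rates do not carry over and the scaling was not tested by them. No 2 libraries agreed within sampling noise (lowest chi-square per degree of freedom 12.4 in liver and 6.19 in cortex). Depth was 8.87 to 11.67 M counts per library. Transcript lengths were those of the longest coding transcript in the GENCODE annotation given with the reference, and promoters and symbols came from RefSeq tables (GRCm38.p6). Some genes are not reported here.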

Additional observations from a re-analysis of the deposited data

Results flagged for a closer look

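A value stood apart where the gap between the highest or lowest library and its nearest neighbour, over the range of the 4, passed Dixon's 95% critical value for 4 samples. Of 150 sets of 4 values checked, 18 did so, and chance gives about 1 in 20, or 7.5. That rate does not hold where 3 libraries have no read, since any read in the other one then stands apart (Ryr2, Gad1, Drd1 and Six3), and many genes were named after their values were seen, so no excess is read from the count. In 11 of the 18 the library was the liver of animal 7, the highest of its set each time: the neuron marker sum (95.7 CPM), Camk2a (24.1 CPM), Snap25 (20 CPM), Mbp (19.8 CPM), Slc17a7 (11.8 CPM), Eef1a2 (11.8 CPM), Penk (4.41 CPM), Gad1 (3.62 CPM), Ryr2 (1.10 CPM), and Drd1 and Six3 (0.157 CPM, or 1 read, each). In the liver of animal 8, B2m (4363 CPM) and the summed bile duct markers (195 CPM) were highest. The bile duct sum rested on Spp1, and without that gene the list held 29.9 to 34.5 CPM over the livers. In the liver of animal 4, Rem2 was highest (0.72 CPM). In the liver of animal 3, Aldh1l1 was lowest (1652 CPM). The cortex of animal 8 was highest in Hba-a1 (368 CPM), in the summed red blood cell markers (455 CPM) and in Thrsp (7.57 CPM).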

How the results depend on the processing

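Counts of genes passing stayed within 1.5 times under all alternatives run: 11395 to 12749 in either direction and 7374 to 9096 past 2-fold in vehicle mice, where DESeq2 gave 11846 and 7374 and unlisted genes set to 0 gave 12749 and 9096. Leaving out 1 library gave 11531 to 11791 and 7945 to 8107, and at 0.1 mg/kg 7525 to 7876. The tests were not blocked by number, since the submitters state no blocked test, and the block was run as an alternative. Over all genes, libraries with the same number did not deviate together (correlations of 0.0015, -0.0425, 0.0024 and 0.0453), and whether a number marks 1 mouse is not settled by this. With the animal number as replicate block 11514 genes passed and 7955 past 2-fold (at the doses 7556, 7767 and 7674), and 2 named calls changed (Pecam1 lost at 0.42, Fgfr3 gained at -0.33). Over 180 named genes and 17 settings, 2967 of 3058 values kept side and direction. On total counts direction turned for 21 genes: Abat (-0.57), Actb (-0.63), Arnt (-0.23), Aspa (-0.35), Col1a1 (-0.66), Col1a2 (-0.36), Cux2 (-0.58), Got1 (-0.01), Gphn (-0.53), Malat1 (-0.63), Mt1 (-0.48), Pecam1 (-0.27), Per2 (-0.58), Pgk1 (-0.23), Pgm2 (-0.13), Ppp1r3c (-0.01), Psmd14 (-0.68), Psmd2 (-0.64), Rspo3 (-0.71), Wnt2 (-0.33) and Xist (-0.31). That scaling omits the correction for abundant liver transcripts. Elsewhere direction turned in 21 values, all of genes that did not pass: with the replicate block Col1a1 (-0.02), Per2 (-0.02) and Rspo3 (-0.01), with no filter Psmd14 (-0.01) and Rspo3 (-0.03), without animal 7 in both tissues Per2 (-0.41) and Psmd14 (-0.04), and on leaving out 1 library Actb (from -0.05 to 0.25), Col1a1 (-0.35 to 0.31), Malat1 (-0.05 to 0.32), Per2 (-0.38 to 0.43), Per3 (-0.70 to 0.09), Psmd14 (-0.04 to 0.15) and Rspo3 (-0.09 to 0.20). Without the most abundant gene of each list the marker counts in the liver of animal 7 were 455 for neurons, 552 for oligodendrocytes and 14125 for astrocytes, against 608, 678 and 15371, and in the other livers 59 to 96, 394 to 488 and 11934 to 14890, so astrocyte counts of animal 7 did not stand apart. Genes with an SD over 1 numbered 28 and 5 on total counts against 34 and 4. Alternatives for animal 7 in both tissues, single libraries at 0.1 mg/kg, list counts and list floors were chosen after seeing the data. Changes below about 2-fold are at the limit of 4 against 4 libraries. A level of 1 CPM rests on between 5.63 and 6.95 counts in a liver and between 11.2 and 14.6 in a cortex.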

Other observations

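Some genes known from one organ were level or higher in the other. Chrna4, a subunit of the brain's nicotinic acetylcholine receptor, was at 55.9, 40.9, 262 and 189 CPM in the livers and 35.4, 39.4, 39.6 and 36.4 CPM in the cortex. Animals 7 and 8 were far above 3 and 4 in liver. The log2 fold change was 1.86 ± 0.591 (1.35 without the liver of animal 7). It passed, but not without the cortex of animal 3 (1.82) or 8 (1.84) or on total counts (1.13). The nuclear noncoding RNA Malat1 was at 187, 122, 218 and 277 CPM in the livers and 188, 152, 203 and 214 CPM in the cortex and did not pass (0.09 ± 0.21, -0.63 under total counts). Xist, which coats the inactive X chromosome, was at 437 and 332 CPM and did not pass (0.4 ± 0.212, -0.31 under total counts) unless the liver of animal 4 was left out (0.60), with reads that its antisense partner Tsix may share. Of 483 long noncoding RNAs tested, 110 were higher in liver past 2-fold (22.8%, with 25.7% of all genes) and 175 in cortex (36.2%, with 32.7%). In either direction the share was 59.0%, near the 58.4% of all genes. Their median was -0.59, against -0.19 over all genes, and on total counts 73 were past 2-fold in liver and 231 in cortex. A further 121 were in the liver table only and 496 in the cortex table only.

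The phosphofructokinases, which commit glucose to glycolysis, were all higher in cortex: Pfkl, named for liver, at 48.6 and 177 CPM (-1.86 ± 0.13), Pfkm at 26 and 344 (-3.72 ± 0.21) and Pfkp at 18.8 and 295 (-3.98 ± 0.152). Among lipid receptors Ppara was higher in liver (27.2 and 2.08 CPM, 3.7 ± 0.173), as was Pparg (14.2 and 2.25 CPM, 2.64 ± 0.321), while Ppard was higher in cortex without passing 2-fold (9.16 and 19.2 CPM, -1.06 ± 0.171). In the cortex the most variable genes beside the globins were one with no symbol in the tables used (gene ID 100861531, 2332, 394, 1229 and 3453 CPM), Scube3 (4.37, 7.57, 13.1 and 15.8 CPM), the forebrain factor Six3 (6.01, 13.6, 10.8 and 23.7 CPM), the ribosomal fusion gene Rps27a (36.2, 30.1, 79.1 and 91.7 CPM) and the small GTPase Rem2 (6.35, 11.8, 13.9 and 24.6 CPM). Scube3 and Rem2 were lowest in animal 3 and highest in animal 8, as were the striatal genes above. In the liver the urinary protein gene Mup17 was at 34.9, 47.6, 329 and 151 CPM and the secreted factor Tsku at 66.7, 115, 69.7 and 11.4 CPM, highest in animal 7 and in animal 4.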
